A study of Mus musculus with 2 samples.

Results

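The genes described here encode the proteins of the cytosolic ribosome. They were chosen by symbol, as every gene of the deposited feature table named Rpl or Rps with a number (and at most 1 of the letters a, x, y or l, and a further number), together with Rplp0, Rplp1, Rplp2 and Rpsa. The rule found 83 of 31253 genes. Of these, 48 belong to the large subunit, 32 to the small subunit and 3 to the P stalk, the arm of the large subunit that receives the translation factors. They lie on 19 chromosomes, and all 83 are annotated as protein coding. Values were measured by BD Rhapsody single-cell RNA sequencing, which captures cells with barcoded beads in microwells, in immune cells of mouse gliomas sorted as living CD45.2+ CD45.1- cells, which the labels call endogenous. There was 1 library from tumours treated with EM, which carries 72 h in its title, and 1 from tumours treated with PBS, for which no time is given. What EM stands for is not said in the labels, and neither are the strain, the age or the number of animals behind a library. Adoptive macrophages are the subject named in the series title, and the comparison is between the host's own immune cells under EM and under PBS.

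A ribosome holds a single copy of nearly every protein of this kind, and cells keep their mRNAs at levels that move together. The mRNAs start with a run of pyrimidines after a C, the terminal oligopyrimidine (TOP) element, through which mTOR and Larp1 control their translation. Ribosomal protein mRNAs make up a large part of the mRNA of resting lymphocytes and a small part of that of mature neutrophils, which make little new protein. Several of the proteins also act outside the ribosome, and some have a paralog made mainly in another tissue.

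Each group was a single library, so no test was possible, the spread between animals is unknown, and every interval covers counting error only. After filtering, the EM library held 7967 cells (median 2016 UMIs) and the PBS library 7756 cells (median 4303 UMIs), where a UMI is 1 captured mRNA molecule. Ribosomal protein UMIs were 11.5% of all UMIs in EM and 11.0% in PBS. The libraries differed in sex-linked RNA, with Xist at 383.9 CPM (UMIs of a gene scaled to a common total of all UMIs) in EM and 10.6 CPM in PBS, and Ddx3y at 4.46 CPM in EM and 192 CPM in PBS. Sex, treatment and library cannot be told apart. Of the cell barcodes, 66 occurred in both libraries. Cells were assigned to classes by marker genes, none of them a ribosomal protein gene. The monocyte/macrophage class had none of its 8 gate markers, and no marker of another class, among its 10 leading genes in either library, and T markers summed to 1.89% of their level in T cells there in EM and 0.789% in PBS. Fewer ribosomal protein mRNAs per cell and more of other mRNAs cannot be told apart in a share of UMIs.

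The letters around the annotated transcription start are shown for 6 members that the results below turn on and that hold a motif of interest there. They come from RefSeq (GRCm38.p6), run 5′ to 3′ on the gene's strand, and have CTTTC in capitals, a C followed by pyrimidines as in TOP elements, which themselves begin at the start of the mRNA.
Rps26 (chr10:128626482-128626511, minus strand): ccgccggatcctCTTTCgagtcttggctcc
Rps27 (chr3:90213639-90213668, minus strand): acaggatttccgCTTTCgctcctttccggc
Rplp2 (chr7:141447639-141447668, plus strand): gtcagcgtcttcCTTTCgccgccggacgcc
Rpl12 (chr2:32961710-32961739, plus strand): ccgtcttttcggCTTTCggctcggaggagg
Rps15a (chr7:118116141-118116170, minus strand): ccggcccactctCTTTCtgccatcttccct
Rpl35 (chr2:39005119-39005148, minus strand): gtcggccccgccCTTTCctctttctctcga
In Rplp2 the motif began at the annotated start, and in the others 5 to 11 bases away from it. Of the other members described below, Rpl10, Rpl10a, Rpl14, Rpl22, Rpl37, Rpl41, Rps27l and Rpsa were in the table and had no CTTTC within 25 bases of the start, so they are not shown. The table held 63 of the 83 members, and 19 of them (30.2%) had CTTTC within 25 bases of the start on the gene's strand. Among listed translation factors and other ribosome components 5 of 17 had it (29.4%), and among all other genes 7.8%. On the other strand, where the same letters read GAAAG, the shares were 11.1%, 5.88% and 7.06%. The motif was chosen after the sequences were seen. Rps26 and Rps27 share it, and their levels differed in opposite directions between EM and PBS, as described below.

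Ribosomal protein mRNA took the largest part of the transcriptome in lymphocytes and the smallest in neutrophils. In EM, the mean share per cell was 13.7% in B cells, 12.8% in natural killer (NK) cells, 12.04% in T cells, 8.74% in conventional dendritic cells, 8.55% in plasmacytoid dendritic cells, 8.48% in microglia, 8.13% in monocyte/macrophage cells and 5.61% in basophil/mast cells. In PBS, it was 13.6% in T cells, 12.2% in B cells, 11.4% in NK cells, 9.93% in conventional dendritic cells, 8.41% in monocyte/macrophage cells, 6.86% in microglia and 1.88% in neutrophils. In both libraries the 3 lymphocyte classes stood above every myeloid class. Neutrophils numbered 1 in EM and 563 in PBS, and plasmacytoid dendritic cells 180 in EM and 2 in PBS, so neither has a counterpart. Plasma cells, which make secreted antibody, were at 3.19% in 14 EM cells and 4.95% in 38 PBS cells, too few for a comparison.

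Cells of 1 class differed far more from each other than counting of UMIs gives. In T cells the SD between cells was 4.11 percentage points in EM and 4.10 in PBS, where counting alone gives 0.721 and 0.533. The middle 90% of T cells reached over 5.68 to 19.1% in EM and 7.07 to 20.5% in PBS, so T cells and monocyte/macrophage cells (4.78 to 12.6% in EM, 3.3 to 14.4% in PBS) overlapped as single cells. Basophil/mast cells were spread unevenly, with a median of 4.4% and an upper quartile of 8.41%, and their share went with depth: the mean was 3.5% in cells with 1000 to 2000 UMIs, 5.51% in those up to 4000 and 9.93% in those up to 8000. In the deepest of these bins they stood above EM plasmacytoid dendritic cells (9.0%) and EM monocyte/macrophage cells (7.41%), so their low place in the order of EM classes depends on depth. Of the neutrophils, 95% were under 3.41%, a range that the lower EM basophil/mast cells shared, with a lower quartile of 2.5%, and that the few plasma cells shared in part. Cells with at least 1000 UMIs were thinned to 1000 UMIs, which took in 505 of 563 neutrophils, 4910 EM T cells and 3978 PBS T cells. A neutrophil then showed a median of 13 ribosomal protein genes, against 54 in EM T cells and 58 in PBS T cells. Markers of T cells summed in neutrophils to 2.06% of their level in T cells, and those of monocyte/macrophage cells to 29.0%. The part of RNA from other cells in the neutrophil share was not tested.

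**Figure D1:**
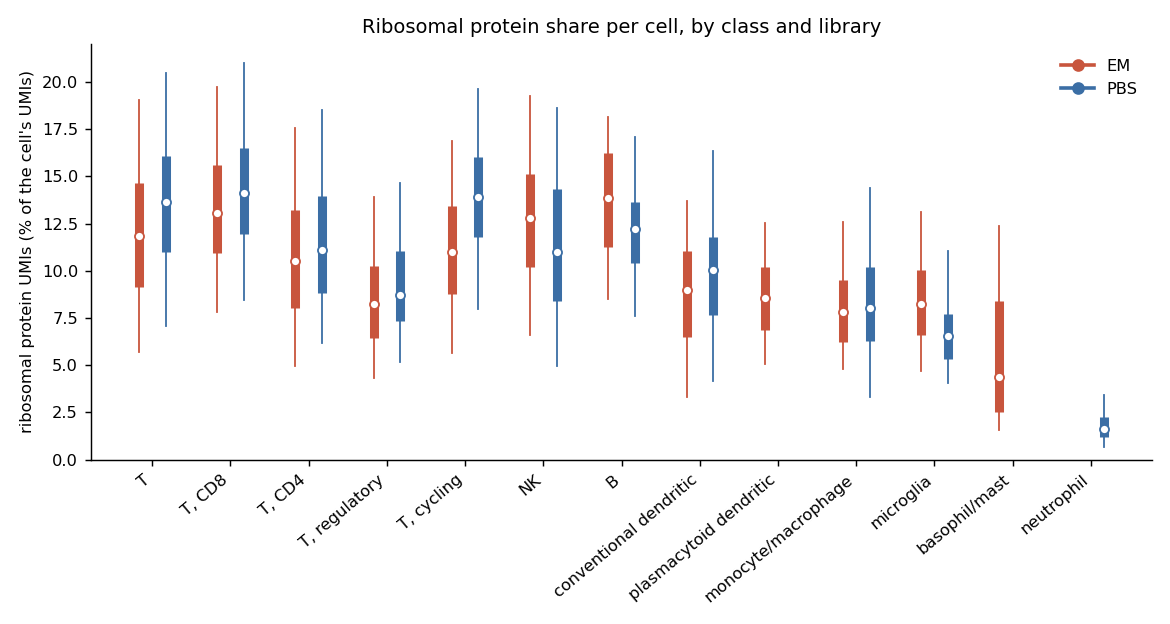
Ribosomal protein UMIs as a percentage of the cell's UMIs (y axis) by class and T subset (x axis), for classes with at least 50 cells, EM left of PBS. Circles are medians, thick bars the quartiles and thin bars the 5th to 95th percentile of cells; T, NK and B cells stand above the myeloid classes, regulatory T cells do not, with medians of 8.25% in EM and 8.7% in PBS, and neutrophils have a median of 1.63%.

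Among T cells the share followed the subset. CD8 T cells had 13.4% in EM and 14.3% in PBS, CD4 T cells 10.8% in EM and 11.5% in PBS, and Foxp3-positive regulatory T cells 8.58% in EM and 9.19% in PBS. The order of these 3 was the same in both libraries. T cells with cell cycle genes such as Mki67 and Top2a had 11.1% in EM and 13.9% in PBS. Regulatory T cells were near the dendritic cells rather than near the other T cells. Within monocyte/macrophage cells, those with Ly6c2, a gene of inflammatory monocytes, had 7.59% in EM and 7.58% in PBS, and those with Arg1 or Mrc1, genes of alternatively activated macrophages, 8.57% in EM and 8.34% in PBS.

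The share also went with depth in lymphocytes, and the libraries differed in depth. In EM NK cells the mean was 12.2% in cells with 1000 to 2000 UMIs, 13.1% in those up to 4000 and 14.6% in those up to 8000. In PBS NK cells the same bins had 9.24%, 11.0% and 14.3%. Regulatory T cells had 7.77%, 9.02% and 9.99% in EM and 7.23%, 8.45% and 9.71% in PBS. Monocyte/macrophage cells showed no such slope, with 8.82%, 7.12% and 7.41% in EM and 8.47%, 8.67% and 8.45% in PBS. Cells were therefore compared within bins of UMIs per cell, each bin weighted by the smaller of its 2 cell numbers.

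At matched depth NK cells had the higher share in EM, 13.2% against 11.4% in PBS, a difference of 1.83 percentage points over 219 matched cells. It was 2.91 points in cells of 1000 to 2000 UMIs and 0.3 in cells of 4000 to 8000. B cells, the antibody lineage, had 13.7% in EM and 11.8% in PBS, a difference of 1.84 points over 48 matched cells. No spread between animals stands behind either difference.

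T cells as a class had 12.5% in EM and 13.2% in PBS at matched depth, a difference of -0.704 points. Its sign changed with depth: the difference was 0.356 points in cells with 1000 to 2000 UMIs and -1.97 in cells with 8000 or more, and in CD8 T cells 1.45 and -1.30 in the same bins. CD8 cells made up 51.2% of the class in EM and 78.1% in PBS, CD4 cells 20.4% in EM and 11.3% in PBS, and regulatory cells 12.6% in EM and 3.26% in PBS. Within the subsets the differences were -0.332 in CD8 cells (13.6% in EM, 14.0% in PBS), 0.28 in CD4 cells (11.3% in EM, 11.1% in PBS) and 0.457 in regulatory cells (9.29% in EM, 8.84% in PBS). With the 3 subsets given equal weight the T difference was 0.135, the opposite sign. The difference was larger in cycling T cells, at -1.76 (11.6% in EM, 13.3% in PBS).

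Among myeloid cells, monocyte/macrophage cells had 7.83% in EM and 8.33% in PBS, a difference of -0.495 points that changed sign to 0.406 under a looser gate and to 0.0534 when classes were taken from clusters. The bins differed in sign, with 2.02 points in cells with 500 to 1000 UMIs and -1.55 in those with 2000 to 4000. The class was also made up differently: cells with Ly6c2 and neither Arg1 nor Mrc1 were 40.3% of it in EM and 12.4% in PBS, and cells with Arg1 or Mrc1 and no Ly6c2 17.4% in EM and 58.6% in PBS. Conventional dendritic cells had 8.97% in EM and 9.92% in PBS, a difference of -0.953 points over 28 matched cells. Microglia, the resident macrophages of the brain, had no bin in common, with a median of 940 UMIs in EM and 9616 in PBS, so their shares stand side by side without a comparison. Their own markers summed to 12055 CPM in EM and 2993.5 CPM in PBS. Monocyte/macrophage markers, which this gate allows, reached 34.3% of their level in monocyte/macrophage cells in EM and 80.0% in PBS. Whether the class holds the same cells in both libraries was not tested.

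**Figure D2:**
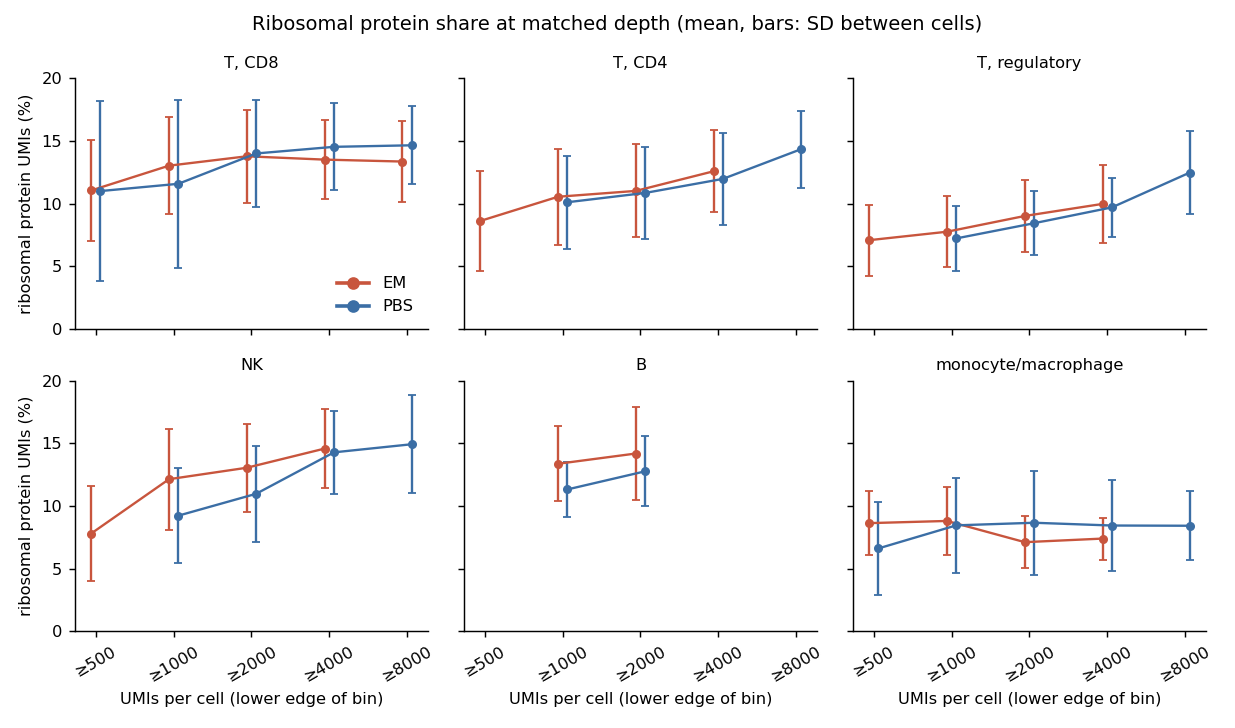
Mean ribosomal protein share (y axis, percent of UMIs) against UMIs per cell (x axis, lower edge of each bin, at least 10 cells per point) for 6 cell groups, EM and PBS. Bars are SDs between cells; NK and B cells lie higher in EM at low depth, and NK cells meet at 14.6% in EM and 14.3% in PBS in the bin from 4000 UMIs.

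Single members were next compared as CPM at matched depth, and a member was counted when EM and PBS differed at least 1.5-fold. Over the 8 classes and subsets compared, 34 members reached that fold in at least 1 and 13 in at least 2, while 47 reached it in none. The T subsets lie within T cells, and the matching numbers over all genes were not counted, so the shares of all genes are given by class. Among T cells, 1 of 81 measured members was that much higher in EM, against 12.5% of all genes, and 4 were lower, against 23.7%. The higher one was Rpl39l, with 16 UMIs in EM and 10 in PBS, and the lower ones were Rpsa, Rps27, Rplp2 and Rpl30. For genes of at least 100 CPM the background was 12.3% higher and 12.9% lower. CD8 T cells had 0 of 80 members higher (background 11.2%) and 1 lower (25.8%), which was Rpsa. CD4 T cells had 5 higher (14.1%), namely Rps26, Rpl13a, Rpl10a, Rpl22 and Rpl41, and 0 lower (22.0%), and regulatory T cells 8 higher (19.1%) and 0 lower (21.0%). NK cells had 7 higher (14.9%, or 11.9% of genes of at least 100 CPM) and 0 lower (24.1%, or 23.8%). B cells had 14 of 78 higher (21.4%) and 0 lower (28.9%). Monocyte/macrophage cells had 0 of 80 higher (14.6%, or 23.6% of genes of at least 100 CPM) and 11 lower (35.3%, or 23.0%), and conventional dendritic cells 0 higher (19.2%) and 5 lower (23.6%), which were Rpsa, Rpl24, Rps27, Rps19 and Rpl14. The members' counts were below the background of all genes in both directions in every class. That background takes in genes with as few as 20 UMIs, while 80 of the 83 members had at least 1000 UMIs over both libraries. A background of genes of at least 100 CPM was taken only for T, NK and monocyte/macrophage cells. In the other classes the part of gene level in this difference was not tested. With the median of all genes removed, T cells had 5 members higher and 0 lower, and monocyte/macrophage cells 1 higher and 0 lower, so the lower calls in both rest on the scaling. The shares of all genes were not counted under that scaling.

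The medians over the members were close to 0. The median log2 ratio of EM over PBS was -0.15 in T cells, against -0.14 over all genes, and 0.08 in NK cells, against -0.11. In B cells it was 0.16 against -0.09, in regulatory T cells 0.08 against -0.05, in CD4 T cells 0.01 against -0.11 and in CD8 T cells -0.09 against -0.16. Monocyte/macrophage cells had -0.21 against -0.27, and conventional dendritic cells -0.10 against -0.02. Removing the median of all genes from each class makes the members' median in monocyte/macrophage cells 0.06, so its direction rests on the scaling.

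Below these small medians, some members kept the same side of 0 in class after class, a few of them close to 0. Of 78 members measured in all of CD8, CD4 and regulatory T cells, NK cells, B cells, monocyte/macrophage cells and conventional dendritic cells, 15 were higher in EM in all 7 and 13 were lower in all 7. When the median of all genes, or the median of the members, was removed from each class, 13 of the 15 and 9 of the 13 kept their side under both. Among the 13 were Rpl10a, Rpl22, Rpl22l1, Rpl31, Rpl37, Rplp0, Rps13, Rps15a, Rps21, Rps26 and Rps29. The 9 were Rpl8, Rpl14, Rpl21, Rpl29, Rpl30, Rpl35, Rps19, Rps27 and Rpsa. The classes came from the same 2 libraries and are not replicates. A difference of libraries in how a gene was captured and a difference of treatment therefore cannot be told apart. How many of all genes kept the same side of 0 in every class was not counted. The numbers of members given here therefore do not set them apart from other genes.

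Rps26, a small subunit protein at the mRNA exit whose loss in humans causes Diamond-Blackfan anaemia, had the highest median log2 ratio of those 28 members, 0.70. It stood at 3478 CPM in EM and 2370 CPM in PBS in CD8 T cells, at 3030 CPM in EM and 1605 CPM in PBS in CD4 T cells, and at 2498 CPM in EM and 1279 CPM in PBS in regulatory T cells. The log2 ratios were 0.55, 0.92 (95% interval 0.84 to 0.99) and 0.97 (0.83 to 1.1). It was also higher in B cells (3085 CPM in EM, 1428 CPM in PBS) and NK cells, at log2 0.70, and lay within the fold in conventional dendritic cells at 0.30 and monocyte/macrophage cells at 0.15.

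Rpl22, a large subunit protein needed in mice for the development of alpha-beta T cells, was at 1249 CPM in EM and 682 CPM in PBS in NK cells, a log2 ratio of 0.87 (0.72 to 1.03). In CD8 T cells it was at 1090 CPM in EM and 749 CPM in PBS, and in conventional dendritic cells at 803 CPM in EM and 577 CPM in PBS. Rpl37, which lies near the tunnel of the nascent chain, was at 2841 CPM in EM and 1616 CPM in PBS in NK cells, and at 2646 CPM in EM and 1250 CPM in PBS in B cells. Rpl10a, the protein of the L1 stalk, had log2 ratios between 0.03 in monocyte/macrophage cells and 1.02 in B cells.

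On the other side, Rps27, a zinc finger protein of the small subunit, was lower in EM in all 7 classes, with log2 ratios between -0.62 and -0.32. It was at 2970 CPM in EM and 4414 CPM in PBS in CD8 T cells, and at 4774 CPM in EM and 6394 CPM in PBS in B cells. Rpsa, a small subunit protein also known as the laminin receptor precursor, was at 1023 CPM in EM and 1675 CPM in PBS in CD8 T cells, a log2 ratio of -0.71 (-0.76 to -0.67). In conventional dendritic cells it was at 603 CPM in EM and 1098 CPM in PBS, and in NK cells at 882 CPM in EM and 1214 CPM in PBS. Rpl30 had ratios between -0.58 and -0.18. In monocyte/macrophage cells Rpl14 was at -0.70, and Rpl35, a protein at the exit of the nascent chain tunnel, at -0.80. Rpl36 was lowest there, with 102 CPM in EM and 182 CPM in PBS, followed by Rpl8 with 244 CPM in EM and 428 CPM in PBS.

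**Figure D3:**
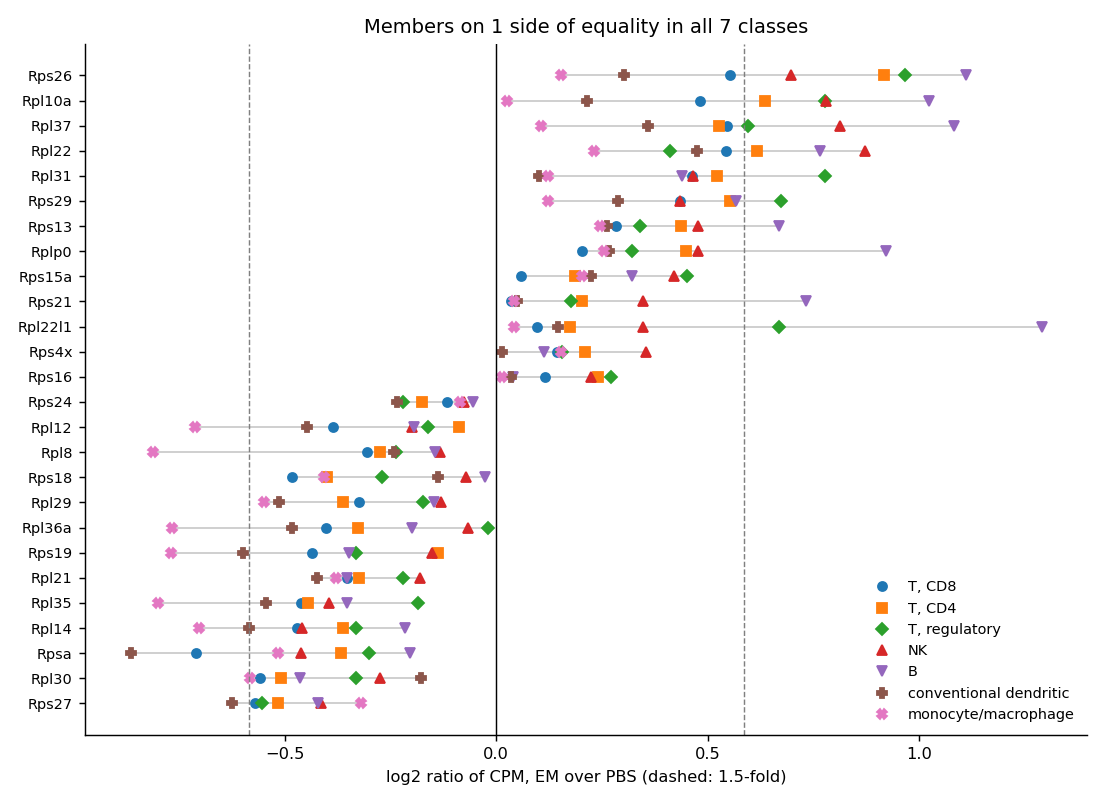
Log2 ratio of CPM, EM over PBS (x axis), for 26 of the 28 members on the same side of 0 in all 7 classes (y axis), 1 symbol per class. The dashed lines mark 1.5-fold; Rps26 has the highest median at 0.70 and Rps27 the lowest at -0.52.

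The P stalk proteins did not move together. Rplp0, the anchor of the stalk, was higher in EM in all 7 classes, with log2 ratios between 0.20 in CD8 T cells and 0.92 in B cells. Rplp1 and Rplp2, which bind to it as a pair, had log2 ratios of -0.26 and -0.58 in CD8 T cells and -0.68 and -0.66 in monocyte/macrophage cells. Rplp2 was at 1195 CPM in EM and 1791 CPM in PBS in CD8 T cells. In B cells all 3 were higher in EM, Rplp1 at 0.40 and Rplp2 at 0.18, and in NK cells Rplp1 was at 0.05 and Rplp2 at -0.33.

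Other members with known roles of their own lay within the fold in most classes. Rpl5 and Rpl11, which with 5S RNA bind Mdm2 and so tie ribosome assembly to p53, had log2 ratios of -0.15 and -0.10 in CD8 T cells, 0.15 and 0.17 in NK cells, and -0.22 and -0.42 in monocyte/macrophage cells. Rps6, the substrate of the S6 kinases, lay between -0.10 and 0.16 in all classes. Rpl3 was at -0.26 in CD8 T cells and 0.06 in NK cells, and Rpl7 between -0.02 and 0.27. Rps19, mutated in Diamond-Blackfan anaemia in humans, was lower in EM in all 7 classes, from -0.14 in CD4 T cells to -0.77 in monocyte/macrophage cells. Rpl38, which in mice affects the translation of Hox mRNAs, was at -0.24 in CD8 T cells and -0.48 in monocyte/macrophage cells. Rps27a, made as a fusion with ubiquitin, lay between -0.13 and 0.16.

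Rps29 was at log2 ratios between 0.12 in monocyte/macrophage cells and 0.67 in regulatory T cells. Rpl41, a very short basic peptide, was at 1.02 in B cells, 0.78 in NK cells and 0.41 in CD8 T cells, but at -0.14 in monocyte/macrophage cells. Rpl13a, known in human monocytes for a second role as a translation repressor, was at 147 CPM in EM and 81.3 CPM in PBS in NK cells, and at -0.53 in conventional dendritic cells. The X-linked members did not share a direction: Rps4x was at 0.14 in CD8 T cells, Rpl39 at -0.43, Rpl36a at -0.40 and Rpl10 at -0.17. The members with the most UMIs over both libraries were Rpl17, Rps13, Rpl23, Rpl39 and Rps24, and of these Rps13 was higher in EM in all 7 classes, between 0.25 and 0.67, and Rps24 lower, between -0.24 and -0.06. In NK cells Rpl23 was at 0.39 and Rpl17 at 0.08.

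Paralogs named for another tissue were nearly silent. Rpl10l, a testis gene copied from Rpl10, had 0 UMIs in 7967 EM and 7756 PBS cells. Rpl39l, known from testis, had 22 UMIs in EM and 28 in PBS, and microglia held 3 of them in EM (9.12 CPM) and 15 in PBS (5.18 CPM). Rpl3l, the paralog of Rpl3 in heart and skeletal muscle, had 5 UMIs in EM and 64 in PBS. In PBS, 14 of these were in neutrophils (14.3 CPM) and 25 in monocyte/macrophage cells (4.15 CPM), while T cells held 4. These counts are too small to read an order of levels.

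The paralogs Rpl22l1, Rps27l and Rpl7l1 were present in all major classes. Rpl22l1, which rises in mice that lack Rpl22, was higher in EM together with Rpl22 in all 7 classes, from log2 0.04 in monocyte/macrophage cells to 1.29 in B cells (0.34 to 2.38). In CD8 T cells Rpl22 was at 0.54 and Rpl22l1 at 0.10, and in regulatory T cells at 0.41 and 0.67. Rps27l, a target of p53, went apart from Rps27. The log2 ratio of Rps27l was 0.22 in CD8 T cells (0.03 to 0.40) and 0.56 in CD4 T cells (0.14 to 0.99). In regulatory T cells it was 0.46 (-0.11 to 1.06), an interval that holds 0, from 144 UMIs in EM and 35 in PBS. Rps27 was at -0.57, -0.52 and -0.56 in these subsets. In monocyte/macrophage cells both were lower in EM, Rps27l at -0.35 and Rps27 at -0.32. Rpl7l1 was at 0.20 in CD8 T cells (-0.07 to 0.47) and -0.57 in monocyte/macrophage cells. Near-identical copies of many members exist in the genome, and how reads that match several places were counted is not given in the sources used here, so values of single members carry that doubt.

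The make-up of the ribosomal protein mRNA, each member as a percentage of all ribosomal protein UMIs, was next compared between T cells and monocyte/macrophage cells at matched depth within each library. The members together took 12.02% of T cell UMIs and 7.69% of monocyte/macrophage UMIs in EM, and 14.3% and 8.33% in PBS, a log2 ratio of 0.64 in EM and 0.78 in PBS. Against that shared difference, 71 of 80 members kept their part within 1.5-fold in both libraries. Of the 80, 61 had the same direction in EM and PBS. Only Rps15a, a protein of the small subunit body, took a part that was past the fold in T cells in both libraries, 2.13% against 1.29% in monocyte/macrophage cells in EM and 1.81% against 0.978% in PBS. Next came Rpl13a (log2 0.64 in EM, 0.42 in PBS), Rpl12 at the base of the stalk (0.80 in EM, 0.40 in PBS), Rpsa (0.28 in EM, 0.59 in PBS) and Rpl5 (0.33 in EM, 0.27 in PBS).

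Rpl10 and Rps27l took the larger part in monocyte/macrophage cells past the fold in both libraries. Rpl10, which is joined late to the large subunit, was 0.196% of ribosomal protein UMIs in T cells against 0.416% in monocyte/macrophage cells in EM, and 0.277% against 0.451% in PBS. Rps27l was at 0.0634% against 0.124% in EM and 0.0859% against 0.146% in PBS. Rps29, Rps9 and Rps25 followed, with log2 ratios of T over monocyte/macrophage of -0.51, -0.78 and -0.37 in EM and -0.64, -0.44 and -0.51 in PBS. In CPM, Rps9 was nearly level between the classes in EM, 1996 CPM in T cells and 2200 CPM in monocyte/macrophage cells, while the members together were lower in monocyte/macrophage cells. Rpl12, Rpl5, Rpl13a and Rps25 overlap another annotated protein-coding gene, as do 18 of the 83 members, and whether the counting used strand is not given in the sources used here.

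**Figure D4:**
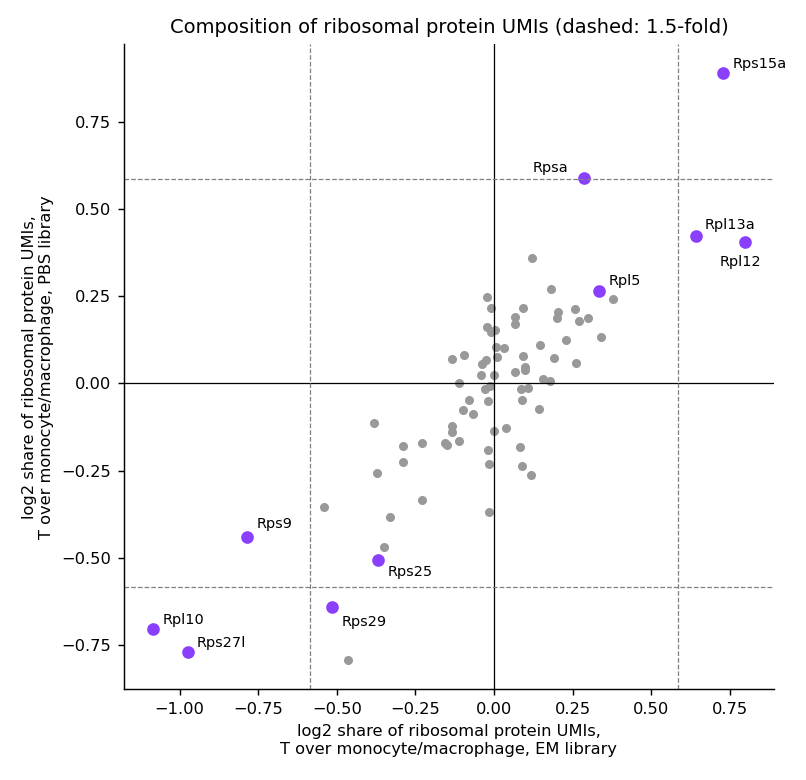
Log2 of each member's percentage of ribosomal protein UMIs, T cells over monocyte/macrophage cells, in EM (x axis) and PBS (y axis), 1 point per member (80), with the 10 named members in purple. Dashed lines mark 1.5-fold; 71 members lie within it in both libraries, and Rps15a, Rpl10 and Rps27l lie past it in both.

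Over all gated cells of each class, the make-up was close to that of T cells in every class but neutrophils. Outside neutrophils, between 0 and 4 members per class and library took a part at least 1.5-fold above that in T cells of the same library, and between 0 and 3 a part as far below, among 76 to 80 members with at least 20 UMIs. Neutrophils had 8 above and 13 below, of 78. The SD of the log2 ratios was 0.58 in neutrophils and 0.14 to 0.375 elsewhere, with NK cells nearest to T cells. The members named from these make-ups were chosen after their values were seen.

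In plasmacytoid dendritic cells, which secrete large amounts of type I interferon on viral contact, 1 member stood out. Rpl31, a large subunit protein at the exit of the nascent chain tunnel, was 4.1% of their ribosomal protein UMIs in EM (2058 of 50173 UMIs, 95% interval 3.93 to 4.28%). In the other EM classes it was between 1.03% in basophil/mast cells and 1.52% in microglia, and in PBS classes between 0.885% in T cells and 1.18% in microglia. The level was 3580 CPM in plasmacytoid dendritic cells and 1415 CPM in EM T cells. The difference was present across cells, since the quartiles were 3.22 and 5.13% in plasmacytoid dendritic cells and 0.585 and 1.54% in EM T cells. Summed B cell markers in plasmacytoid dendritic cells reached 24.3% of the B cell level, and Rpl31 in EM B cells was 1.09%. Tbc1d8, which overlaps Rpl31 on the other strand, was at 381 CPM in plasmacytoid dendritic cells and at 322 CPM in EM conventional dendritic cells, where Rpl31 was 1.23%. PBS held only 2 plasmacytoid dendritic cells, so the pattern rests on 1 library.

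Rps27l took its largest parts in conventional dendritic cells, at 0.267% in EM (0.230 to 0.310%) and 0.181% in PBS (0.148 to 0.220%), and in PBS neutrophils, at 0.249% from 52 UMIs. T cells had 0.0593% in EM and 0.0639% in PBS, and B cells 0.0259% in EM and 0.0361% in PBS. Its level was 238 CPM in EM and 175 CPM in PBS in conventional dendritic cells, against 73.1 CPM in EM and 89.6 CPM in PBS in T cells. B cells had the largest part of Rps27 outside neutrophils, at 3.33% in EM and 4.25% in PBS, while conventional dendritic cells had 1.81% in EM and 2.27% in PBS.

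Neutrophils kept some members while others were scarce. Rps9, a small subunit protein that acts in decoding fidelity, was 5.84% of their ribosomal protein UMIs (5.53 to 6.17%), against 2.09% in PBS T cells, and Rps27 5.15% against 2.64%. Rps25 was at 2.55% against 1.23% and Rps27a at 2.13% against 1.2%. Lower in part were Rpl3 at 0.393% against 0.977%, Rps15a at 0.824% against 1.9%, Rps18 at 0.613% against 1.37%, Rpl12 at 0.532% against 1.09% and Rpl5 at 1.1% against 2.23%. Even so, the level of Rps9 was 1244 CPM in neutrophils and 2935 CPM in PBS T cells, so the members with a larger part were still lower in level. Rps15a had a smaller part than in T cells (2.12% in EM, 1.9% in PBS) in every other class. It was at 1.29% in EM and 0.978% in PBS monocyte/macrophage cells, 1.3% in EM and 1.02% in PBS conventional dendritic cells, and 1.05% in EM basophil/mast cells. B cells had 1.55% in EM and 1.35% in PBS, and NK cells 1.84% in EM and 1.49% in PBS.

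**Figure D5:**
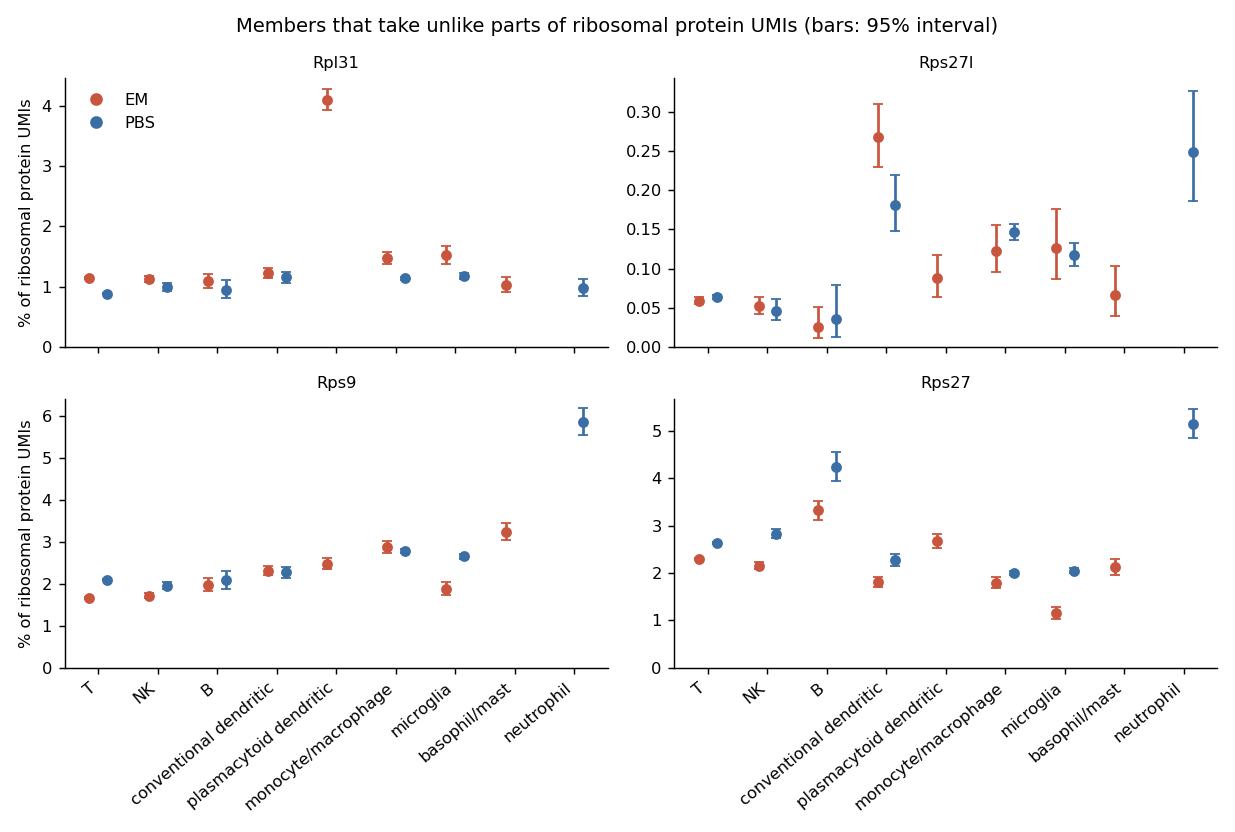
Percentage of ribosomal protein UMIs (y axis) taken by Rpl31, Rps27l, Rps9 and Rps27 in each class (x axis), EM left of PBS, with exact binomial 95% intervals for counting error. Rpl31 reaches 4.1% in EM plasmacytoid dendritic cells, and Rps9 and Rps27 are highest in PBS neutrophils, at 5.84% and 5.15%.

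Other genes of the ribosome and of translation did not all follow the members. Among ribosome components outside the symbol rule, Fau, a ubiquitin-like protein fused to a small subunit protein, was lower in EM in all 7 classes, with log2 ratios between -0.63 and -0.26. Rack1, a scaffold on the small subunit, lay between -0.26 and 0.02 there. Of 19 measured translation factors and other TOP genes, 0 were past the fold in T cells and in monocyte/macrophage cells. Among all genes, 12.5% were higher and 23.7% lower in T cells, and 14.6% and 35.3% in monocyte/macrophage cells. The medians of the 19 genes were 0.05 and -0.14. In NK cells 2 were higher (14.9% of all genes) and 0 lower (24.1%), with a median of 0.22. Eef1a1, the main carrier of aminoacyl-tRNA, was at -0.16 in CD8 T cells and 0.10 in NK cells.

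In monocyte/macrophage cells, whose subsets were mixed in different proportions in the libraries as given above, genes that build or control ribosomes had lower medians than the members. The part of that mix in these values was not tested. Neither was the part of counting error, here or in the T and NK values below. A gene needed only 20 UMIs over both libraries, and the EM class had 345 cells with a median of 1309 UMIs. The shares of all genes given beside the lists are not matched on level. Of 21 measured ribosome biogenesis genes there, 0 were at least 1.5-fold higher (14.6% of all genes) and 15 lower (35.3%) in EM, with a median of -0.86, against -0.27 over all genes. Among them Nop2, an rRNA methyltransferase, was at -1.9, Dkc1, which makes pseudouridine in rRNA, at -1.28 and Polr1a, the largest subunit of RNA polymerase I, at -1.16, while Fbl, the rRNA 2'-O-methyltransferase, was at 0.18. Of 14 translation control genes 2 were higher and 9 lower, with a median of -1.15: Mtor was at -2.11, Myc at -1.99 and Eif4ebp1 at -1.01. Eif2ak2, the interferon-induced kinase PKR, was at 1.2. In T cells 1 of 24 biogenesis genes was higher (12.5% of all genes) and 0 lower (23.7%), with a median of 0.03, and 1 of 14 control genes was higher and 1 lower, with a median of -0.09. In CD4 T cells 11 of 24 biogenesis genes were higher (14.1% of all genes) and 3 lower (22.0%), with a median of 0.41. In regulatory T cells 8 of 20 were higher (19.1%) and 1 lower (21.0%), and in NK cells 7 of 24 were higher (14.9%) and 2 lower (24.1%).

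Mitochondrial ribosomal protein genes, which serve the separate ribosome of mitochondria, were counted in the same way. In regulatory T cells 30 of 68 were at least 1.5-fold higher in EM, against 19.1% of all genes, and 4 were lower, against 21.0% (median 0.48). In CD4 T cells 20 of 76 were higher (14.1%) and 2 lower (22.0%), with a median of 0.23, and in NK cells 26 of 73 were higher (14.9%) and 9 lower (24.1%), with a median of 0.28. In T cells 11 of 77 were higher (12.5%) and 0 lower (23.7%), with a median of 0.16. In monocyte/macrophage cells 6 of 70 were higher (14.6%) and 19 lower (35.3%), both below the share of all genes, with a median of -0.23. These genes have few UMIs each, and the part of counting error in these numbers was not tested. Of 9 measured kinases named for Rps6 in T cells, 0 were higher and 3 lower, and of 5 measured ribosomal protein pseudogenes 0 were higher and 3 lower, against 12.5% of all genes higher and 23.7% lower, numbers too small to set a list apart.

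Genes whose levels followed the summed members most closely were then ranked. Over 15 sums of a class in a library and 1732 genes that are no members, Pearson's r of log2 CPM was 0.98 for Rack1, 0.97 for Npm1 (a nucleolar chaperone), 0.97 for Eef1g, 0.96 for Eef1a1 and 0.96 for Naca. Mdh1 (malate dehydrogenase), Eif3e, Eif3i, Snrpg (a splicing protein) and Btf3 followed, at 0.95, 0.95, 0.95, 0.95 and 0.94. The 15 sums share 2 libraries and differ in depth, and neutrophils are the lowest of them. Rack1 was between 98.0 and 1262 CPM over these sums, and Eef1a1 between 868 and 10393 CPM.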

How the data were processed

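BD Rhapsody was used for the single-cell libraries, per the labels' protocols. The files the authors deposited are raw UMI counts of each gene in each barcode, without normalization, as the file headers and whole-number values show. CASAVA 1.8 and STARsolo were used with mm10, per the submitters' processing notes. Not given in the sources used here are the cell calling, the annotation and the treatment of reads that match several places. Shares, CPM and log2 ratios were computed here from those counts with Python 3.11.15, numpy 2.4.6 and scipy 1.17.1.

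The members and gene lists were chosen with earlier results of these data known. Kept cells had at least 500 UMIs, at least 200 genes and at most 20% mitochondrial UMIs. A cell joined 1 of 11 classes when it had at least 3 of that class's 8 markers and 2 more than of any other class; microglia could also carry monocyte/macrophage markers, and monocyte/macrophage cells at most 1 microglia marker. T subsets were set by Cd8a or Cd8b1, Cd4 and Foxp3. No doublet caller was run; an alternative kept cells with at most 1 marker of another class.

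Matching on depth used bins of UMIs per cell starting at 500, 1000, 2000, 4000 and 8000, with at least 10 cells in both libraries, weighted by the smaller cell number. Ratios were taken for genes with at least 20 UMIs over both libraries. Intervals are exact binomial (Clopper-Pearson) for shares and from the conditional binomial on effective counts for ratios, at 95%, and cover counting error only. The ratio step was checked on simulated counts. Gene positions came from GENCODE vM21 by identifier (all 83 members found). Members named in the text are a fixed set with known roles, the 3 highest and 3 lowest per class at 50 CPM or more in either library, the 5 most biased per direction between T and monocyte/macrophage cells, and the 5 with the most UMIs. That set also asked for Rps4l, which is not analysed here. A few genes and a subset these rules take are not reported here. Other members were named after their values were seen. The alternatives include clusters (scanpy 1.11.5 and leidenalg 0.10.2, resolution 1.0, 2000 variable genes, 30 components, 15 neighbours).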

Additional observations from a re-analysis of the deposited data

Results flagged for a closer look

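NK cells and T cells differed in opposite directions between the libraries: at matched depth the EM minus PBS difference in ribosomal protein share was 1.83 percentage points in NK cells and -0.704 in T cells, 2.53 points apart. CD4 and CD8 T cells also had opposite signs, 0.28 and -0.332, and were 0.612 points apart. Neither difference between groups was tested, since there was 1 library per group. Cells that no marker gate took, 1162 in EM and 1713 in PBS, enter no class: at matched depth their share was 9.9% in EM and 5.97% in PBS, a difference of 3.92 points. In the bin from 500 UMIs they had 8.69% in EM and 3.97% in PBS, and in the bin from 8000 UMIs 11.4% in EM and 8.33% in PBS. These ungated cells can be of different kinds in the libraries. Among clusters with most cells not gated to their class, the eosinophil cluster held more PBS than EM cells. The larger conventional dendritic cluster, also mostly not gated to its class, held more EM than PBS cells. The part of cell mix in the ungated difference was not tested.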

How the results depend on the processing

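No paired analysis was possible because there was 1 library per group, and no library could be left out. The share in NK cells was higher in EM under every alternative run: 1.39 points without matching on depth, 1.34 from summed UMIs, 2.15 without mitochondrial genes in the denominator, 1.72 with a mitochondrial limit of 10% and 2.18 with classes from clusters. The T difference was -1.59, -0.932, -0.737, -0.832 and -0.128 under those settings, -0.536 with a looser gate, -0.669 with gates on cells thinned to 1000 UMIs, -0.801 with at most 1 marker of another class and -0.622 with finer depth bins, and it reversed to 0.135 with equal weight of subsets. The monocyte/macrophage difference was -0.286 without matching, -0.916 from summed UMIs, -0.77 without mitochondrial genes, -0.292 on thinned cells, -0.398 with at most 1 other marker and -0.601 with finer bins, and reversed to 0.406 with the looser gate and 0.0534 with clusters. The cause was not tested. Without matching, CD4 and regulatory T cells reversed to -0.632 and -0.604. The last 3 kinds of alternative (1 other marker, finer bins, equal subsets) were chosen after seeing the data.

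The share of all genes past the fold was counted in the main setting only, so the counts of members under the alternatives have no background. Without matching, 1 member was higher and 7 lower in T cells, 4 higher and 2 lower in NK cells, and 1 higher and 8 lower in monocyte/macrophage cells. The members' median log2 ratio was then -0.22 in T cells, -0.20 in monocyte/macrophage cells and reversed to -0.000878 in NK cells. Removing the median of all genes, a shift of -0.14 in T, -0.11 in NK and -0.27 in monocyte/macrophage cells, gave 5 members higher and 0 lower in T cells and 1 higher and 0 lower in monocyte/macrophage cells. The medians were then -0.0094 in T cells, 0.19 in NK cells and 0.0615 in monocyte/macrophage cells, the last reversed. At a fold of 2, 0 members were lower in T or monocyte/macrophage cells and 0 higher in NK cells. Without a minimum of UMIs the T median was -0.16, and without mitochondrial genes the NK and monocyte/macrophage medians were 0.10 and -0.26. Members within the fold between T and monocyte/macrophage cells numbered 71 or 73, and those of the same direction 61 or 62. With the 10% limit or at most 1 other marker, B and conventional dendritic cells had too few cells for a value. At these depths a member with few UMIs, such as Rpl3l or Rpl39l, could not be compared.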
